A study of Mus musculus with 29 samples.

Results

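Liver X receptors (LXRs) are nuclear receptors that bind oxysterols and switch on genes for the removal of cholesterol from cells. The 8 genes described here are the LXRs Nr1h2 (LXRβ) and Nr1h3 (LXRα), the cholesterol exporters Abca1 and Abcg1, the phospholipid genes Pltp and Lpcat3, the E3 ligase gene Mylip, and Soat1, which makes cholesteryl esters for storage. They were chosen by symbol from a list of known LXR biology, with earlier results of these data known. All 8 were found among the 51456 genes of the deposited values, and all 8 were tested. Their RNA was measured by sequencing in 29 aortic arch libraries from male C57BL/6 mice labelled as 14 weeks old. In 9 libraries the mice lacked apolipoprotein E (ApoE KO), had a subcutaneous pump with angiotensin II (AngII) at 15.27 mg/mL delivering 0.11 µL/hr, and received vehicle. In 10 libraries ApoE KO mice with the same AngII pump received the sclerostin antibody Scl-Ab, 10 mg/kg once a week over 4 weeks. The remaining 10 libraries were wild-type (WT) mice with vehicle in the pump and in the injections.

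All 3 groups were fed chow, and ApoE KO mice with AngII develop aortic disease. ApoE is a secreted lipoprotein component and an acceptor for exported cholesterol, and Apoe is itself an LXR target, so the model lacks 1 arm of the pathway in every cell. Genotype and AngII differ together between the model and WT, and their effects cannot be told apart. The labels' protocol names 9 WT mice for 10 WT libraries, so n is a number of libraries, and p-values measure the spread between them. Scl-Ab neutralises sclerostin, a secreted inhibitor of Wnt signalling.

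In macrophages, LXRs pair with a retinoid X receptor on a DNA element made of a repeated half-site with a spacer, and with ligand they recruit coactivators. ABCA1 passes cholesterol and phospholipid to lipid-poor apolipoprotein A-I, and ABCG1 passes cholesterol to mature high-density lipoprotein. Macrophage foam cells, which store cholesteryl esters, are a hallmark of atherosclerotic arteries, and in them LXR targets are best known for limiting this store.

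Promoter sequences were compared because the members were chosen around the LXRs, and they include the receptor genes themselves. RefSeq promoters (GRCm38.p6, 250 bases upstream of an annotated start) were matched by symbol for 7 of the 8 members, and Abcg1 was not matched. Abca1 is shown because its window alone of the 7 held a match to the LXR element, Pltp as a member that rose and whose window held no such match, and Nr1h2 because it was the member that fell. All 3 genes lie on the minus strand, at chr4:53159896-53160145, chr2:164857709-164857958 and chr7:44553966-44554215 respectively, and the sequences read 5′ to 3′ toward the gene. Capitals mark the E-box CACGTG and the match to the LXR element.
Abca1: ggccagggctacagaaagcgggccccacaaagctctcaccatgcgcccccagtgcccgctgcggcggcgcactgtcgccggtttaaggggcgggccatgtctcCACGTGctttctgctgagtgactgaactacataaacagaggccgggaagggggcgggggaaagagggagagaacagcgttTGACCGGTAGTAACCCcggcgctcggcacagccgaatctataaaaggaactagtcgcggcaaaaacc
Pltp: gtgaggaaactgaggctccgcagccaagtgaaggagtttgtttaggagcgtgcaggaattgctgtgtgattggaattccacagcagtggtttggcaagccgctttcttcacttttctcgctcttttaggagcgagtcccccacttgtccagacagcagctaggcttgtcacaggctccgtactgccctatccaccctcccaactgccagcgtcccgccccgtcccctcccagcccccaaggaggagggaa
Nr1h2: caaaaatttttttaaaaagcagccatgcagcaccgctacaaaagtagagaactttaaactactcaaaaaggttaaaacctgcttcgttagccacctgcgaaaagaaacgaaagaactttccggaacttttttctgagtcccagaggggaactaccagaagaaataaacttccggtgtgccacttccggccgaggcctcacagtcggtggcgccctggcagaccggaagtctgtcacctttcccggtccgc

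The LXR element searched on both strands was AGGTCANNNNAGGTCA, with up to 3 mismatches among its 12 fixed bases. The Abca1 match, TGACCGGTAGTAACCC as read along the gene's strand, had 3 mismatches and lay at -67 to -52 from the start on the opposite strand. Such a match occurred in 18.5% of 32851 RefSeq promoters of this length, and one with at most 2 mismatches in 2.57%. The E-box CACGTG of Abca1 lay at -147 to -142 and occurs in 6.02% of promoters. Abca1 also held TATAAA at -29 to -24, present in 12.4% of promoters, as did Mylip at -32 to -27. The GC box GGGCGG, present in 32.7% of promoters, was in the windows of Abca1, Pltp, Lpcat3 and Mylip. The motifs of Abca1 did not overlap each other, and 2 of the GC boxes of Lpcat3 shared 1 base. These matches describe letters in the window, and binding was not measured.

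Depth was similar across libraries. Values are FPKM-like, scaled by gene length, and 31.8 to 43.7 fragments lay behind each unit of value for 2 kb of exon. The members were thus measured from about 83 fragments (Abcg1 in WT) to 6829 fragments (Abca1). Apoe, deleted in the model, averaged 264 ± 65.0 in WT (SD, n = 10), 6.71 ± 1.71 in vehicle-treated ApoE KO (SD, n = 9) and 8.39 ± 2.79 in Scl-Ab-treated ApoE KO (SD, n = 10), and its ranges in ApoE KO and WT did not overlap. In the tissue check, the summed value of 7 contractile smooth muscle markers was 17000 to 20420 in WT, 4831 to 16430 with vehicle and 5465 to 13200 with Scl-Ab, and no marker was at 0 in all libraries of a group.

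The first comparison asked how LXR genes differ between the diseased and the WT arch. In the vehicle-treated model, 7 of the 8 members were higher than in WT and 1, Nr1h2, was lower (limma, Benjamini-Hochberg adjusted p under 0.05 over 13510 genes). For background, 22.7% of all genes tested were higher by the same test and 53.7% differed in either direction (3065 higher and 4190 lower). The members were chosen with earlier results of these data known, so setting them against these shares is not an independent test. The median change of the 8 was 0.75 on the log2 scale, against -0.04 for all genes tested. All folds given with limma are on the log2(value + 1) scale. They are therefore not ratios of the group means printed beside them, and they understate the change of genes with low values. The ranges of the 2 groups did not overlap for 5 members, 4 higher and 1 lower, where 7.81% and 9.04% of all genes showed such a separation. Bulk tissue cannot tell more cells of a type from more RNA per cell.

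Macrophage marker genes moved with this comparison. Of the 18 markers, 17 rose, and Cd163 had a 1.36-fold difference that did not pass (limma adjusted p = 0.071). The count includes Fcgr1 and Cx3cr1, whose WT medians were 0.731 and 0.758. A gene was tested if it reached a value of 1 in 9 libraries, so at least these markers entered through the model libraries, where they were high. The summed value of the 18 was 127 to 423 in WT, 1193 to 3649 with vehicle and 934 to 2233 with Scl-Ab. Lyz2, which encodes lysozyme, rose 9.14-fold and C1qb, which encodes a complement subunit, rose 4.81-fold. The part of macrophage content in the members' differences between groups was not tested. Of 10 adipocyte markers, 1 rose (Cfd, 2.88-fold), and their summed value spread widely, from 429 to 3057 in WT, 655 to 11140 with vehicle and 903 to 8638 with Scl-Ab. Per the labels' protocol, adventitial fat had been scraped away.

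**Figure D1:**
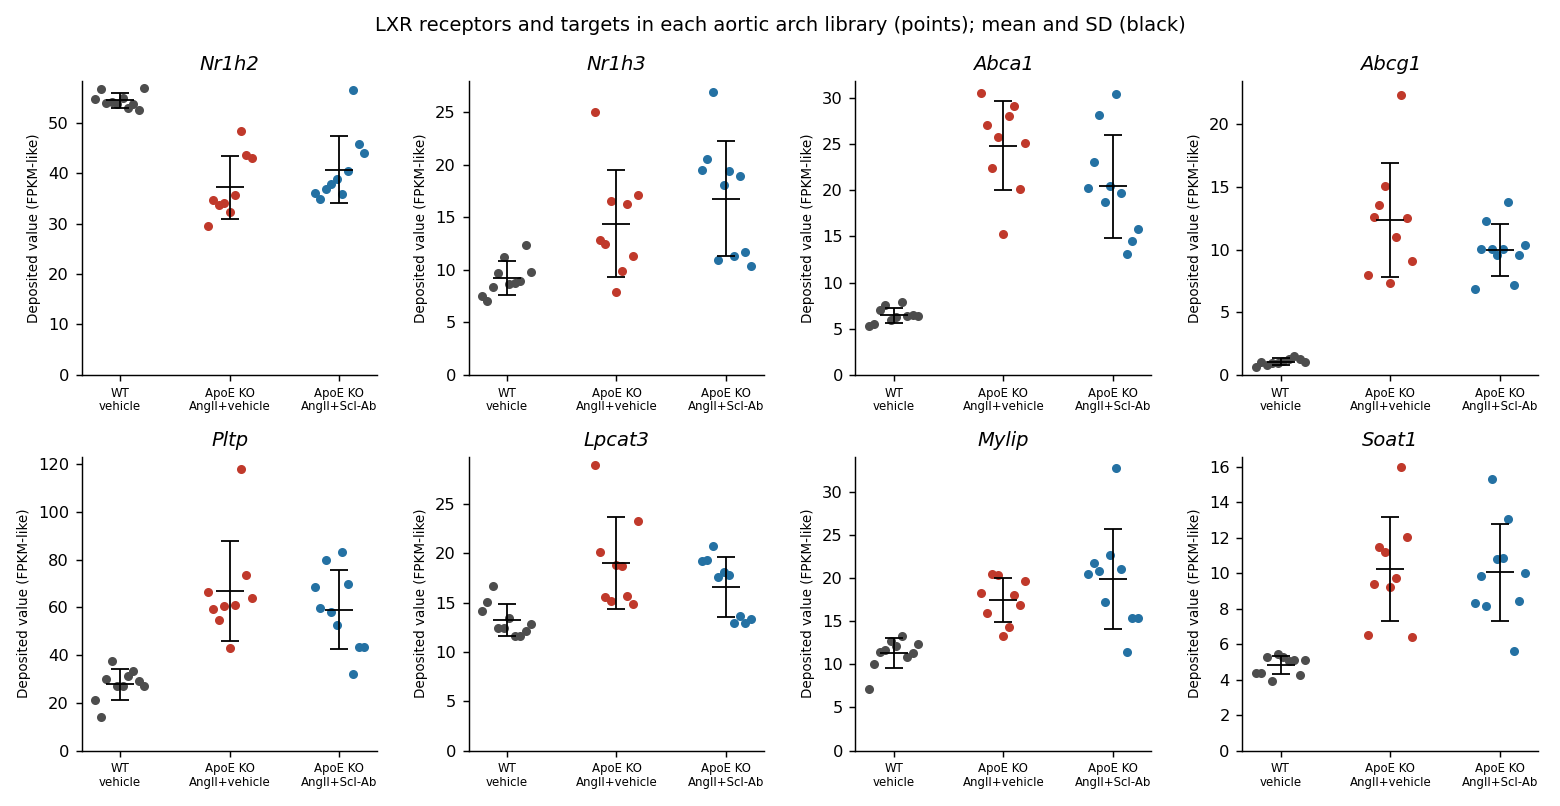
Deposited FPKM-like value of each of the 8 genes (y axis, from 0) in each library (points) of WT, vehicle-treated model and Scl-Ab-treated model, with the group mean and SD in black. Abca1, Abcg1, Pltp and Soat1 lie above all WT libraries in the vehicle group, Nr1h2 lies below them, and the model groups overlap for all 8 genes.

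The receptors differed in opposite directions. Nr1h2 (GRCm38 chromosome 7, 44549616 to 44553951, protein coding), the broadly expressed LXRβ, ran from 52.6 through a median of 54.0 to 56.9 in WT, from 29.5 through 34.7 to 48.4 with vehicle and from 34.8 through 38.3 to 56.5 with Scl-Ab. Every vehicle library lay below every WT library, and WT was nearly flat with a coefficient of variation of 2.66%. Its mean fell from 54.4 ± 1.45 (SD, n = 10) to 37.2 ± 6.27 (SD, n = 9), which is 0.682-fold (log2 -0.55, SE 0.081, limma adjusted p = 2.18e-06). With Scl-Ab it was 40.7 ± 6.61 (SD, n = 10), 0.745-fold of WT (limma adjusted p = 5.89e-05), and the highest Scl-Ab library, replicate 17, lay among the WT libraries.

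Nr1h3 (chromosome 2, 91184061 to 91202834), the LXRα of macrophages, fat and liver, ran from 7.02 through 8.85 to 12.4 in WT, from 7.86 through 12.8 to 25.03 with vehicle and from 10.4 through 18.5 to 26.95 with Scl-Ab. The groups overlapped, and 6 of 9 vehicle libraries lay above the highest WT library. Its mean was higher in the model, at 14.4 ± 5.09 (SD, n = 9) against 9.22 ± 1.62 (SD, n = 10) in WT, 1.45-fold (log2 0.54, SE 0.17, limma adjusted p = 0.0101). Against WT libraries 25 to 29 alone the log2 change was 0.47 and no longer passed (limma adjusted p = 0.0969). The Scl-Ab mean was 16.8 ± 5.46 (SD, n = 10), 1.68-fold of WT (limma adjusted p = 0.000487).

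Nr1h2 had the higher value per length in all 29 libraries. The ratio of Nr1h3 to Nr1h2 averaged 0.170 ± 0.0325 in WT (SD, n = 10), 0.399 ± 0.185 in the vehicle group (SD, n = 9) and 0.426 ± 0.170 in the Scl-Ab group (SD, n = 10). WT ratios ran from 0.124 to 0.236, vehicle ratios from 0.244 to 0.848 and Scl-Ab ratios from 0.237 to 0.731, so both model groups lay above every WT library. No test was made on the ratios, whose parts had been tested singly.

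**Figure D2:**
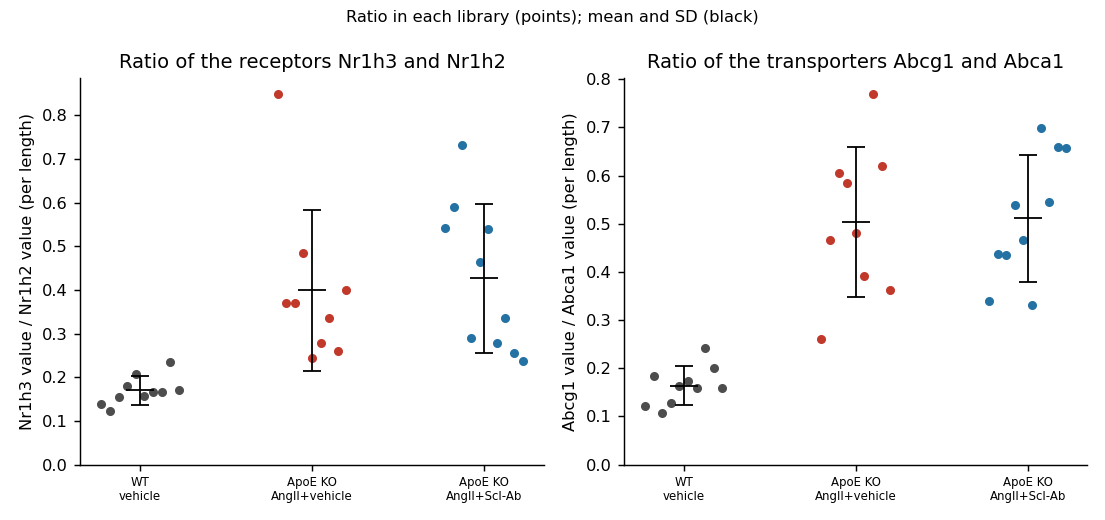
Ratio of Nr1h3 to Nr1h2 (left) and of Abcg1 to Abca1 (right), each from values per gene length, in every library (points), with the group mean and SD in black. For both ratios all model libraries lie above all WT libraries, and every ratio is below 1.

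The exporters showed the largest differences among the members. Abca1 (chromosome 4, 53030787 to 53159895), which carries the LXR element match and E-box printed above, ran from 5.25 through 6.34 to 7.86 in WT, from 15.2 through 25.8 to 30.6 with vehicle and from 13.1 through 20.0 to 30.4 with Scl-Ab. All 19 model libraries lay above all WT libraries. Abca1 rose from a mean of 6.45 ± 0.831 (SD, n = 10) to 24.8 ± 4.84 (SD, n = 9) in vehicle-treated mice, 3.42-fold (log2 1.77, SE 0.13, limma adjusted p = 5.61e-12). With Scl-Ab it was 20.4 ± 5.58 (SD, n = 10), 2.80-fold of WT (limma adjusted p = 1.10e-10).

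Abcg1 (chromosome 17, 31057675 to 31117988) was the lowest member in WT, from 0.636 through 1.01 to 1.54, and ran from 7.32 through 12.5 to 22.4 with vehicle and from 6.88 through 10.1 to 13.8 with Scl-Ab. No model library came near the WT range. In WT 6 of 10 libraries reached a value of 1, which the filter asked of 9 libraries, so Abcg1 entered the test through the model libraries. Its mean rose from 1.05 ± 0.263 (SD, n = 10) to 12.4 ± 4.56 (SD, n = 9), 6.27-fold on the log2(value + 1) scale, which understates the change of a gene this low (log2 2.65, SE 0.14, limma adjusted p = 2.04e-14). With a pseudocount of 0.1 the log2 change was 3.39. The Scl-Ab mean was 9.98 ± 2.05 (SD, n = 10), 5.30-fold of WT on the log2(value + 1) scale.

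The 2 exporters thus differed unequally. The ratio of Abcg1 to Abca1 averaged 0.164 ± 0.0401 in WT (SD, n = 10), 0.505 ± 0.156 in the vehicle group (SD, n = 9) and 0.511 ± 0.132 in the Scl-Ab group (SD, n = 10). Abca1 had the higher value in all 29 libraries. The lowest model ratio, 0.261, lay just above the highest WT ratio, 0.243.

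The phospholipid genes both rose. Pltp (chromosome 2, 164839518 to 164857711), which encodes the transfer protein that moves phospholipids between lipoproteins, ran from 14.0 through 28.2 to 37.4 in WT, from 43.1 through 61.2 to 118 with vehicle and from 32.2 through 59.0 to 83.2 with Scl-Ab. All 9 vehicle libraries and 9 of 10 Scl-Ab libraries lay above every WT library, and vehicle replicate 7 stood alone at the top. The mean rose from 27.8 ± 6.49 (SD, n = 10) to 66.8 ± 20.9 (SD, n = 9) in vehicle-treated mice, 2.34-fold (log2 1.23, SE 0.18, limma adjusted p = 1.37e-06). With Scl-Ab it was 59.2 ± 16.5 (SD, n = 10), 2.07-fold of WT (limma adjusted p = 9.01e-06). Exons of Pltp overlap 495 bases of Ctsa on the opposite strand, whether counting used strand is not given in the sources used here, and Ctsa itself was 0.998-fold of WT (limma adjusted p = 0.971).

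Lpcat3 (chromosome 6, 124663027 to 124704418), whose enzyme puts polyunsaturated fatty acids into membrane phospholipids, ran from 11.6 through 12.7 to 16.7 in WT, from 14.9 through 18.8 to 28.9 with vehicle and from 12.9 through 17.7 to 20.7 with Scl-Ab. The groups overlapped, with 5 of 9 vehicle libraries above the highest WT library. The mean rose from 13.2 ± 1.64 (SD, n = 10) to 19.02 ± 4.64 (SD, n = 9), 1.39-fold (log2 0.47, SE 0.11, limma adjusted p = 0.00072). The Scl-Ab mean of 16.6 ± 3.03 (SD, n = 10) was 1.22-fold of WT (limma adjusted p = 0.0242), a call lost without Scl-Ab replicate 12 (log2 0.26, limma adjusted p = 0.0512) and against WT libraries 20 to 24 alone (log2 0.20, limma adjusted p = 0.248). Its exons overlap 334 bases of Emg1 on the opposite strand, which was lower in the model (0.887-fold, limma adjusted p = 0.0148).

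Mylip (chromosome 13, 45389742 to 45412022), also called IDOL, marks lipoprotein receptors for degradation. It ran from 7.12 through 11.6 to 13.3 in WT, from 13.2 through 17.98 to 20.5 with vehicle and from 11.4 through 20.7 to 32.8 with Scl-Ab. Of 9 vehicle libraries, 8 lay above every WT library, and the vehicle and WT ranges met only at their edges. Mylip rose from a mean of 11.3 ± 1.73 (SD, n = 10) to 17.5 ± 2.59 (SD, n = 9) in vehicle-treated mice, 1.51-fold (log2 0.59, SE 0.13, limma adjusted p = 0.000366), and was 19.9 ± 5.77 (SD, n = 10) with Scl-Ab, 1.66-fold of WT (limma adjusted p = 1.91e-05).

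Soat1 (chromosome 1, 156424525 to 156474331) esterifies cholesterol for storage and so acts opposite to export. It ran from 3.92 through 5.08 to 5.44 in WT, from 6.39 through 9.75 to 16.0 with vehicle and from 5.61 through 9.93 to 15.3 with Scl-Ab. All 19 model libraries lay above all WT libraries. Soat1 rose from a mean of 4.82 ± 0.532 (SD, n = 10) to 10.2 ± 2.94 (SD, n = 9) in vehicle-treated mice, 1.88-fold (log2 0.91, SE 0.14, limma adjusted p = 3.24e-06), and was 10.0 ± 2.73 (SD, n = 10) with Scl-Ab, 1.85-fold of WT (limma adjusted p = 2.91e-06).

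Against WT, the Scl-Ab-treated model also had 7 members higher and 1 lower, where 19.8% and 30.5% of all genes were called. This comparison shares its WT libraries with the first, so its values are given above side by side. Its ranges did not overlap for 3 members, Abca1, Abcg1 and Soat1, all higher, against 5.74% of all genes. The median change was 0.82 on the log2 scale, against -0.06 for all genes.

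By value per length, the order in WT was Nr1h2, Pltp, Lpcat3, Mylip, Nr1h3, Abca1, Soat1 and Abcg1. Only Nr1h2 and Pltp, and Soat1 and Abcg1, were neighbours with separate ranges. With vehicle the order was Pltp, Nr1h2, Abca1, Lpcat3, Mylip, Nr1h3, Abcg1 and Soat1, and no neighbours had separate ranges, although Pltp exceeded Nr1h2 in 9 of 9 libraries. With Scl-Ab it was Pltp, Nr1h2, Abca1, Mylip, Nr1h3, Lpcat3, Soat1 and Abcg1, and only Nr1h2 and Abca1 had separate ranges.

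Scl-Ab was then compared with vehicle within the model. None of the 8 members was called between Scl-Ab and vehicle (limma), against 7.44% of all genes tested. At an unadjusted p under 0.05 there was 1, Abca1, and an exact permutation test with adjustment over all genes also called 0. The ranges overlapped for all 8 members, and 0.141% of all genes had separate ranges. The median change of the 8 was -0.10 on the log2 scale, against -0.01 for all genes.

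Abca1 came nearest to the threshold, at 0.819-fold of vehicle (95% confidence interval 0.683 to 0.984, limma adjusted p = 0.159). Only 1 of 9 vehicle libraries lay above the highest Scl-Ab library, and 2 of 10 Scl-Ab libraries lay below the lowest vehicle library. Over the alternatives its log2 change ran from -0.37 to -0.23 and its adjusted p from 0.0713 to 0.867 (limma or permutation). Abcg1 was 0.846-fold (interval 0.691 to 1.03, limma adjusted p = 0.298) and Pltp 0.885-fold (interval 0.690 to 1.14, limma adjusted p = 0.579). The data therefore leave room for a fall of Abcg1 to 0.691-fold as well as for no difference.

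Nr1h2 was 1.09-fold of vehicle (interval 0.973 to 1.23) and Nr1h3 1.16-fold (interval 0.908 to 1.48). Lpcat3 was 0.883-fold (interval 0.756 to 1.03) and Mylip 1.11-fold (interval 0.920 to 1.33). For Soat1 the fold was 0.987, with an interval from 0.813 to 1.20. The limma adjusted p of these 5 ran from 0.324 for Lpcat3 to 0.955 for Soat1. Each interval includes no difference, and none shows that the 2 groups are alike beyond its bounds.

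**Figure D3:**
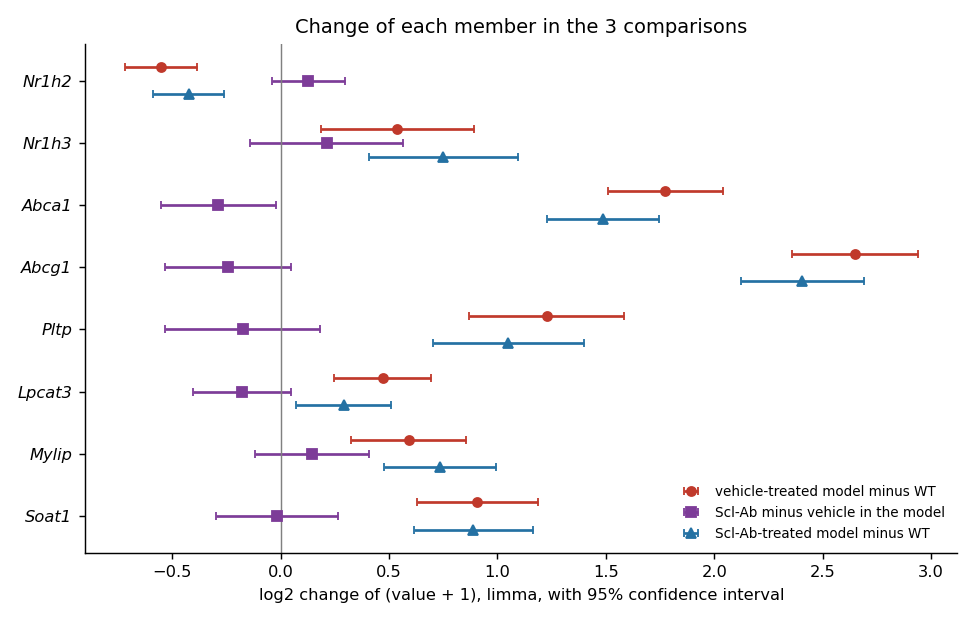
Log2 change of (value + 1) of each gene with its 95% confidence interval (x axis, limma) in the 3 comparisons, which share libraries. Intervals against WT lie to the right of 0 for 7 genes and to the left for Nr1h2, and for Scl-Ab minus vehicle only that of Abca1 does not include 0.

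Circadian clock genes differed between the treatment groups: 5 of 8 output genes were higher and 4 of 4 opposite-phase genes lower with Scl-Ab than with vehicle (limma). A clock index (mean log2 value of 8 output genes minus that of 4 opposite-phase genes) was 0.577 ± 1.16 in the vehicle group (SD, n = 9), 3.01 ± 0.635 in the Scl-Ab group (SD, n = 10) and 2.53 ± 1.55 in WT (SD, n = 10). With the index as a covariate 0 of the 8 members and 3 of 13510 genes were called between Scl-Ab and vehicle (limma), against 1005 genes without it. The index differed between the Scl-Ab and vehicle groups and was made in part of genes called between them. This fit therefore cannot tell clock from treatment, and no cause is read from the lost calls. No such fit was made against WT, and the part of the clock in the members' differences from WT was not tested. Of 18 macrophage markers 0 were called between Scl-Ab and vehicle, and 2 had an unadjusted p under 0.05. Heart muscle markers had a summed value of 3.12 to 295 with vehicle (median 18.2) and 3.54 to 641 with Scl-Ab (median 222.5). Of these 5 markers 1 was called higher and 5 had an unadjusted p under 0.05 (limma), and the part of each of these in the members' values was not tested.

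Within groups, members followed different marker genes. Of 48 relations between a member and the mean log2 value of the macrophage or adipocyte markers in 1 group, 11 had a Benjamini-Hochberg adjusted p under 0.05 by permutation. Pltp rose with the macrophage mean in WT (r = 0.968, rho = 0.915, n = 10, permutation p = 4e-05 and 0.00052, adjusted p = 0.00192 for r), and r was 0.871 without the 2 libraries farthest from the median. With Scl-Ab r was 0.865 (rho = 0.830, n = 10, permutation p = 0.00124 and 0.00456, adjusted p = 0.0198), and 0.709 without 2 libraries. With vehicle r was 0.576 and did not pass (n = 9, exact permutation, adjusted p = 0.185).

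Nr1h3 followed the adipocyte mean in all 3 groups. Its r was 0.966 with Scl-Ab (rho = 0.976, n = 10, permutation adjusted p = 0.00192), 0.806 in WT (rho = 0.915, n = 10, permutation adjusted p = 0.0316) and 0.796 with vehicle (rho = 0.833, n = 9, exact permutation adjusted p = 0.0407 for r and 0.0567 for rho). Without the 2 farthest libraries r was 0.977, 0.869 and 0.538, so the relation with vehicle leaned on those libraries. Its relation to the macrophage mean did not pass in any group, with r from -0.114 to 0.468 (permutation adjusted p from 0.271 to 0.785). The highest Nr1h3 values with vehicle and with Scl-Ab, in replicates 1 and 12, were also the libraries with the highest adipocyte mean of their group, 8.34 and 8.15.

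**Figure D4:**
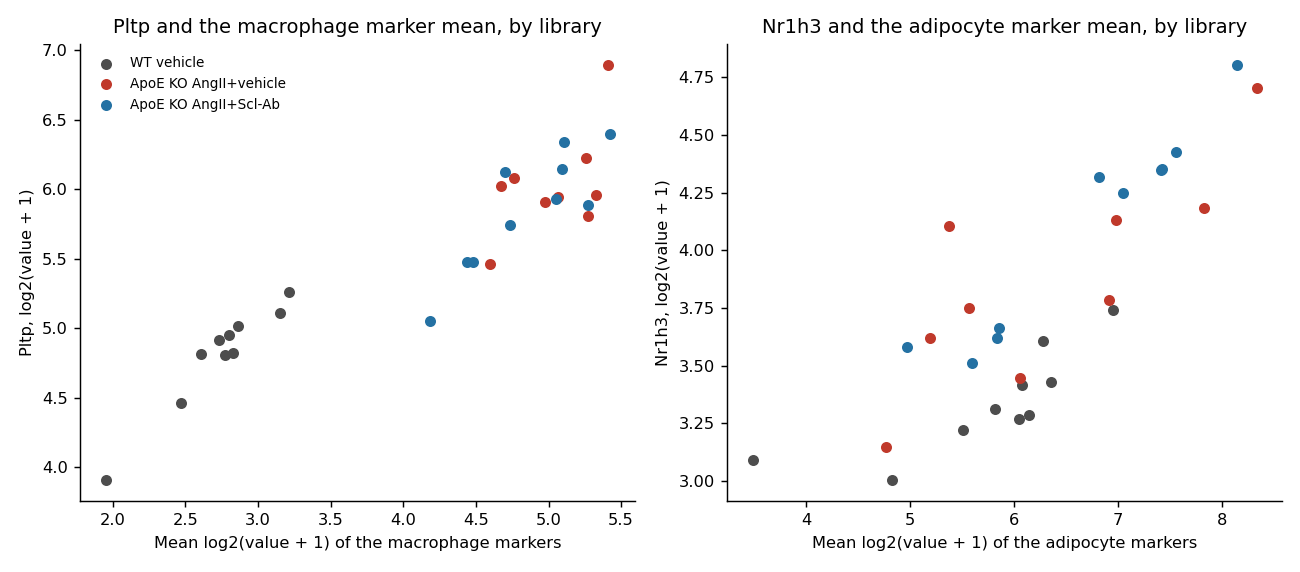
Left, Pltp against the mean log2(value + 1) of 18 macrophage markers, and right, Nr1h3 against that of 10 adipocyte markers, with 1 point a library coloured by group. Within WT the points of Pltp lie along a line (r = 0.968), and with Scl-Ab so do those of Nr1h3 (r = 0.966).

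Of the other members, 5 had an r with the macrophage mean that passed in 1 group each, and Lpcat3 in none. Abca1 (r = 0.838, rho = 0.745), Mylip (r = 0.793, rho = 0.685) and Nr1h2 (r = -0.802, rho = -0.685) passed with Scl-Ab (n = 10, permutation adjusted p of r = 0.0275, 0.0316 and 0.0275), and r was 0.659, 0.477 and -0.657 without 2 libraries. Abcg1 (r = 0.810, rho = 0.733) and Soat1 (r = 0.802, rho = 0.833) passed with vehicle (n = 9, exact permutation adjusted p of r = 0.0368 and 0.038), and r was 0.684 and 0.851 without 2 libraries. For these 5 members the adjusted p of rho did not pass, from 0.0567 for Soat1 to 0.143 for Mylip, Nr1h2 and Abcg1 (permutation). In the groups where r did not pass, Nr1h2 had r = 0.436 with vehicle and -0.606 in WT. There Abca1, Mylip, Abcg1 and Soat1 had r from 0.126 to 0.707. Without 2 libraries, r with vehicle was 0.761 for Nr1h2, -0.354 for Abca1 and -0.147 for Mylip. The r of Lpcat3 with the macrophage mean was 0.544 with Scl-Ab, -0.682 with vehicle and -0.527 in WT (permutation adjusted p = 0.185, 0.116 and 0.201). With the adipocyte mean in the Scl-Ab group, rho of Lpcat3 passed and r did not (r = 0.672, rho = 0.830, n = 10, permutation adjusted p = 0.114 and 0.0438), and r was 0.932 without 2 libraries. Mylip also passed with the adipocyte mean in WT (r = 0.879, rho = 0.661, n = 10, permutation adjusted p = 0.0316 for r and 0.162 for rho), but rested on 2 libraries, without which r was 0.141. Whether these relations differ between groups was not tested.

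Single libraries stood at the edge for several members. With Scl-Ab, replicate 17 was lowest for Abca1, Mylip, Pltp and Soat1 and highest for Nr1h2, and it had the lowest macrophage mean of its group, 4.18. It was also the shallowest of the 29 libraries, with 31.8 fragments behind each unit of value for 2 kb of exon. Replicate 15 was highest for Abca1, Mylip and Pltp and had the highest macrophage mean, 5.42. With vehicle, replicate 5 was lowest for Abca1, Abcg1, Nr1h3, Mylip and Pltp with the lowest macrophage mean, 4.60, and replicate 7 was highest for Abcg1, Pltp, Soat1 and Nr1h2 with the highest, 5.41. Leaving out any of these 4 changed no member's call.

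The genes most like 4 of the members were found by Pearson's r of deviations from the group mean on the log2(value + 1) scale, over 29 libraries and 13510 genes. For Abca1 they were Npc2 (r = 0.928), Shtn1 (0.881) and H2-D1 (0.872), of which Npc2 encodes the lysosomal cholesterol carrier. For Abcg1 they were Gpr137b (0.887), Ctsb (0.884), Ctsd (0.871) and Hk3 (0.864), where Ctsb and Ctsd encode lysosomal cathepsins. The genes nearest Pltp were C1qc (0.902), C1qb (0.881), Anpep (0.880) and C1qa (0.868), and C1qa, C1qb and C1qc encode the subunits of complement C1q and are among the macrophage markers. Nr1h3 was nearest to Flad1 (0.928), Bcat2 (0.920), Ldhd (0.916) and Chdh (0.915), genes of cofactor, amino acid, lactate and choline metabolism.

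In the vehicle-treated model against WT, all the neighbours of Abca1, Abcg1 and Pltp named here rose, from 1.61-fold for H2-D1 to 4.81-fold for C1qb (limma adjusted p at most 2.96e-05). The 4 neighbours of Nr1h3 did not pass, with limma adjusted p from 0.163 for Chdh to 0.973 for Flad1. Among the members themselves, the deviations of Abca1 were closest to those of Pltp (r = 0.750) and Mylip (r = 0.732), and those of Abcg1 to Soat1 (r = 0.672). These correlations are descriptions over libraries that share groups and carry no test.

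Other LXR targets did not move as a block. Of 18 listed genes 15 were tested, and in the vehicle-treated model 6 rose and 1, the deleted Apoe, fell (2 fell without WT replicate 20 or vehicle replicate 1), with a median log2 change of 0.25. Besides Cd5l these were Npc2, Arl4c, Scd2, Lpl and Smpdl3a, from 1.19-fold for Smpdl3a to 2.51-fold for Lpl. Cd5l, an LXR target and secreted macrophage protein, was at 0.014 ± 0.0286 (SD, n = 10) in WT and 123 ± 119 (SD, n = 9) with vehicle. Its highest WT value was 0.0898, so it passed the filter only through the model libraries and could not have been called lower against WT. Srebf1, the lipogenic regulator that LXR drives in liver, was 1.08-fold (limma adjusted p = 0.52), and Abcg5, Abcg8 and Apoc2 were too low to test.

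Of 11 receptor partners and coregulators tested, 0 rose (1 without WT replicate 28) and 3 fell against WT by limma. These were Rxrb (0.792-fold), Ppard (0.820-fold) and Ncoa1 (0.893-fold), with 3 at an unadjusted p under 0.05. Rxra, the main LXR partner, was 0.997-fold of WT (limma adjusted p = 0.956). Among the oxysterol genes, Ch25h, which makes the LXR ligand 25-hydroxycholesterol, rose 2.72-fold from a mean of 0.380 ± 0.304 (SD, n = 10) to 2.96 ± 1.82 (SD, n = 9). It passed the filter only through the model libraries, since its highest WT value was 1.08, and its fold is on the log2(value + 1) scale, which understates the change of low genes: with a pseudocount of 0.1 its log2 change was 2.74. In the same list Cyp27a1 (0.711-fold) and Cyp46a1 (0.748-fold) fell, and both calls were lost against WT libraries 20 to 24 alone (limma adjusted p = 0.0804 and 0.136).

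Cholesteryl ester and trafficking genes rose for 5 and fell for 3 of 10 tested. The ester hydrolases Lipa (2.29-fold) and Nceh1 (2.20-fold), the sterol transporter gene Gramd1b (3.39-fold), the lipid droplet gene Plin2 (2.29-fold) and the high-density lipoprotein receptor gene Scarb1 (1.86-fold) rose. Stard3 (0.767-fold), Abca7 (0.830-fold) and Lcat (0.754-fold) fell. Of the receptors that MYLIP degrades, Vldlr (0.599-fold) fell and Lrp8 (1.65-fold) rose at the RNA level, while protein was not measured.

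Of the 6 other lysophospholipid acyltransferase genes, Lpcat2 (2.84-fold) and Mboat1 (1.34-fold) rose, and Mboat2 (0.811-fold) and Lpcat4 (0.806-fold) fell. The WT median of Lpcat2 was 0.974, so it passed the filter through the model libraries. The calls of Mboat1, Mboat2 and Lpcat4 were lost against WT libraries 20 to 24 or 25 to 29 alone, with log2 0.18, -0.18 and -0.27 where lost (-0.35 for Lpcat4 against 25 to 29). Sterol synthesis genes had 2 of 10 tested lower against WT, Srebf2 (0.652-fold), the master regulator of that pathway, and Fdft1 (0.737-fold), and 0 higher. The calls of Smpdl3a, Abca7 and Fdft1 were lost against WT libraries 20 to 24 or 25 to 29 alone (limma adjusted p = 0.118 for Smpdl3a, 0.113 for Abca7, 0.0543 and 0.125 for Fdft1). Removing GC and length trends also lost the calls of Smpdl3a, Abca7 and Lpcat4. Among the 60 tested genes of the 7 lists, 31 were called in the vehicle-treated model against WT (limma), or 51.7%. This is near the 53.7% of all genes called in either direction in that comparison.

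Scl-Ab against vehicle gave 5 calls among the 60 tested genes of these 7 lists, or 8.33%, near the 7.44% of all genes called in that comparison. Scd2 (0.728-fold, limma adjusted p = 0.0364), a desaturase gene, was lower with Scl-Ab, as were Gramd1b (0.595-fold, limma adjusted p = 0.0361), Fdps (0.706-fold, limma adjusted p = 0.0244) and Idi1 (0.652-fold, limma adjusted p = 0.0287), the last 2 of the mevalonate pathway. Abca7, a phospholipid transporter related to Abca1, was higher (1.30-fold, limma adjusted p = 0.00731). The counts were 1 of 15 other targets, 2 of 10 ester and trafficking genes and 2 of 10 sterol synthesis genes.

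These 5 calls differed in how far they depended on the libraries and terms of the fit. The call of Scd2 was lost in 8 of 19 fits that left out 1 library, that of Gramd1b in 9 of 19 and that of Idi1 in 1 of 19 (without vehicle replicate 5), while Fdps and Abca7 kept theirs in all 19. With the clock index as a covariate all 5 were lost (limma adjusted p from 0.759 for Abca7 to 0.995 for Fdps), in a fit that cannot tell clock from treatment. Within title codes 12 to 15 alone, with 4 libraries a group, 0 genes of all tested were called, and the log2 changes were -0.23 for Scd2, -0.63 for Gramd1b, -0.20 for Fdps, -0.34 for Idi1 and 0.35 for Abca7. Within codes 27 to 33 Gramd1b lost its call (log2 -0.80, limma adjusted p = 0.0867), and Scd2, Fdps, Idi1 and Abca7 kept theirs. In the partner, oxysterol, receptor and acyltransferase lists 0 genes were called by limma, with 1, 5, 0 and 2 at an unadjusted p under 0.05 and 0 by the exact permutation test.

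**Figure D5:**
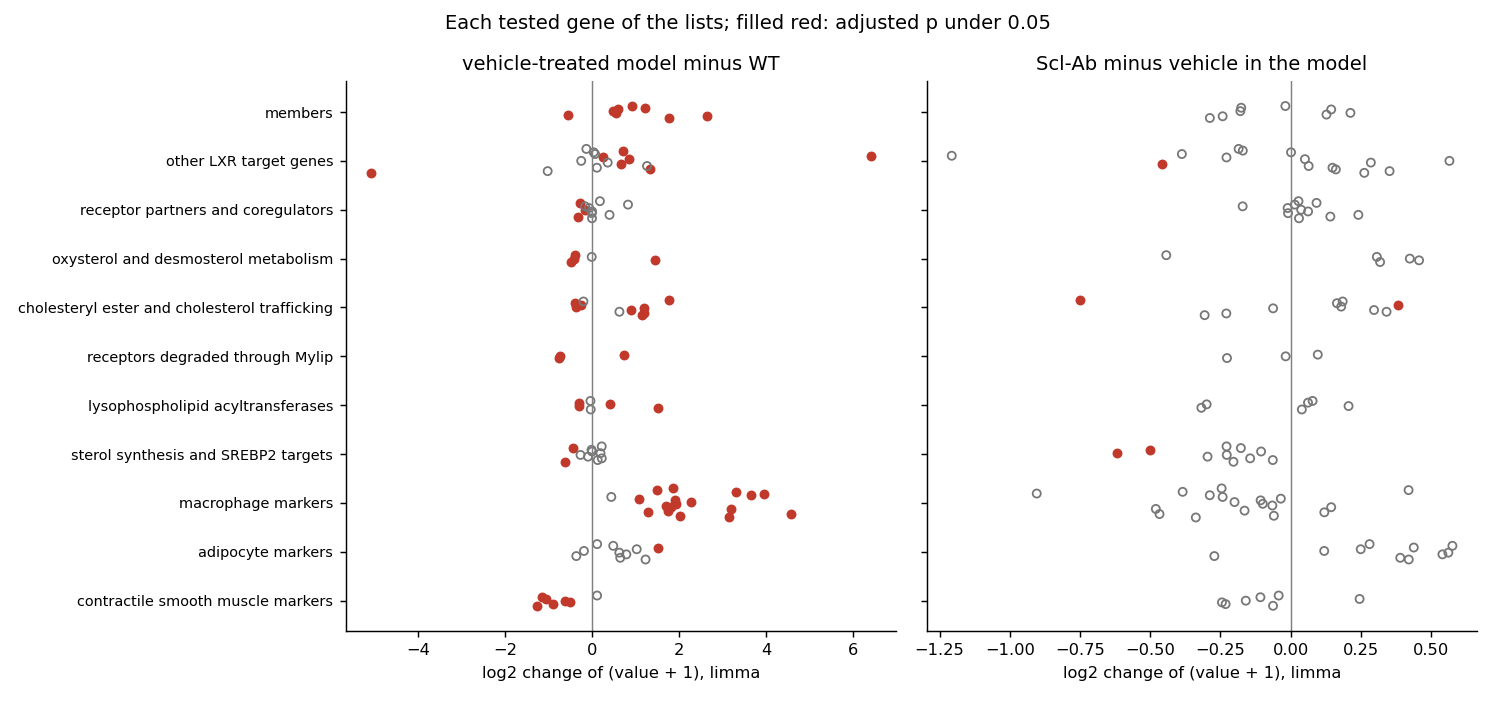
Log2 change of (value + 1) of each tested gene (points, limma) in 11 lists, for vehicle-treated model minus WT (left) and Scl-Ab minus vehicle (right, narrower axis). Filled red points pass the adjusted threshold: 7 members to the right and 1 to the left in the first comparison and 0 in the second.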

How the data were processed

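The deposited files hold 1 FPKM-like value per gene and library, named FPKQ per the file headers, which do not spell the unit out. The values lie on steps set by gene length, and their 85th percentile varied less between libraries (6.99 to 7.30) than their sum (496126 to 678907), so they were treated as FPKM-like values the authors scaled to a common upper quantile. Depth was read from the step size, with 74.6 to 77.7% of low values within 0.05 of a whole step. The submitters' processing notes name build GRCm38 and DESeq2 1.10.1 without their roles. Aligner, counter and annotation: not given in the sources used here. Libraries were TruSeq stranded mRNA, per the labels' protocols.

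Groups came from the titles. log2(value + 1) was tested in R 4.3.3 with limma (version 3.58.1, robust empirical Bayes with a trend) on genes reaching a value of 1 in 9 or more libraries, all 29 libraries in 1 fit, with Benjamini-Hochberg adjustment and a threshold of 0.05. No count test was used, since counts were not at hand. Permutation tests were two-sided, exact for 9 libraries and with 100000 resamples for 10. On simulated data with 50 genes changed per size among 13510, the shares recovered at 1.25-fold, 1.5-fold and 2-fold were 48, 86 and 98% for the vehicle-treated model against WT and 48, 86 and 96% for Scl-Ab against vehicle. Gene positions came from GENCODE M21, which matched 45797 symbols. No 2 libraries of a group were duplicates, with a smallest root mean square log2 difference of 0.235.

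The members and lists were chosen with earlier results of these data known. Named genes were the members, the 3 tested genes with the smallest p per list in each of the first 2 comparisons, the 2 highest genes per marker list, the 4 nearest genes of Abca1, Abcg1, Nr1h3 and Pltp, and Apoe and Sost. Some genes that this rule names are not reported here. Other genes named to account for a count, and Srebf1 and Rxra, were chosen after their values were seen. Alternatives changed the pseudocount, filter, scaling, libraries and model terms.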

Additional observations from a re-analysis of the deposited data

Results flagged for a closer look

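In 4 of 24 sets of member values within a group, 1 library stood apart from the others of its group by Dixon's gap test at the 95% level, and chance flags about 1 in 20 groups. Pltp was 118 in vehicle replicate 7, with the next library at 73.6. Nr1h2 was 56.5 in Scl-Ab replicate 17, with the next at 45.7. Mylip was 32.8 in Scl-Ab replicate 15, with the next at 22.7. Mylip was 7.12 in WT replicate 20, with the next at 10.0. Leaving out any of these libraries changed no member's call in the comparisons it entered.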

How the results depend on the processing

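The 8 members gave 736 tests under alternatives over the 3 comparisons. Of these, 733 stayed called or not called as in the main fit, 3 lost the call and 0 gained one. A called member reversed its direction in 0 tests. The 3 lost were Nr1h3 against WT libraries 25 to 29 alone (log2 0.47, limma adjusted p = 0.0969), and Lpcat3 with Scl-Ab against WT without Scl-Ab replicate 12 (log2 0.26, limma adjusted p = 0.0512) or against WT libraries 20 to 24 alone (log2 0.20, limma adjusted p = 0.248). The cause was not tested. In 16 of the 733 tests a member that was not called changed sign. Members called higher or lower numbered 7 and 1 for the vehicle-treated model against WT when any 1 library was left out, 6 to 7 and 1 for Scl-Ab against WT, and 0 and 0 for Scl-Ab against vehicle. Among the list genes, Scl-Ab against vehicle gained calls when 1 library was left out: Cyp39a1 without vehicle replicate 3 or Scl-Ab replicate 10, 11 or 17, Cyp46a1 without Scl-Ab replicate 10 or 11, Rxrb without vehicle replicate 7, Smpdl3a without Scl-Ab replicate 15 or 16, and Cd5l without vehicle replicate 1 or Scl-Ab replicate 16.

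Over all genes, Scl-Ab against vehicle gave 1005 calls, and 447 with no filter, 369 with equal totals, 574 with GC and length trends removed, 309 with the 2 groups alone, 525 within title codes 27 to 33, 0 within codes 12 to 15, 481 by the exact permutation test and 3 with the clock index as a covariate. Leaving out 1 library gave 547 to 1223 calls, with 547 without vehicle replicate 2, 628 without replicate 5 and 607 without replicate 6. The share of these calls that were higher was 35.4%, against 65.0% with equal totals. The same ranges were 6850 to 7295 for the vehicle-treated model against WT and 6382 to 7674 for Scl-Ab against WT. No scaling moved the median of all genes by over 0.1 on the log2 scale. For 8 title codes a vehicle and a Scl-Ab library end in the same digits, none of which a WT library has, and the labels do not say what the digits mark. The deviations of such pairs from their group means had a correlation over 0.1 in 2 of 8 pairs (range -0.54 to 0.62, across genes), and 3 of 16 libraries correlated best with their own code, so the digits were not taken to pair the samples. A fit with the code as a replicate block, chosen after seeing the data, called 7 genes and the same 16 libraries without the block 180, with 0 of the 8 members called in either. Of the 5 list genes called, 0 passed with the block (limma adjusted p = 0.133 for Fdps), and Fdps alone passed without it. On simulated data 48% of genes changed by 1.25-fold were recovered for Scl-Ab against vehicle. That share is over genes drawn at random from all tested, with independent noise, and was not worked out for the members. Their SE in this comparison ran from 0.081 for Nr1h2 to 0.18 for Pltp on the log2 scale.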

Other observations

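Sost, the gene of the antibody's target, was 655 ± 108 (SD, n = 10) in WT, 400 ± 141 (SD, n = 9) in the vehicle-treated model and 289 ± 118 (SD, n = 10) with Scl-Ab. It was lower in the vehicle-treated model than in WT (0.585-fold, limma adjusted p = 0.00459), a call lost against WT libraries 25 to 29 alone (limma adjusted p = 0.0518). Between Scl-Ab and vehicle it was 0.698-fold (limma adjusted p = 0.141). Of 8 endothelial markers 5 rose in the vehicle-treated model against WT and 2 were lower with Scl-Ab than with vehicle. Of 6 fibroblast markers 3 rose in the vehicle-treated model against WT (limma), beside the same 22.7%. Between Scl-Ab and vehicle 0 differed (limma, 0 also at an unadjusted p under 0.05), where 7.44% of all genes tested were called in either direction.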
